A study of Mus musculus with 2 samples.

Results

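The contractile and pericyte genes of mural cells are described here in fetal bone marrow of the mouse. Mural cells are the smooth muscle cells and pericytes that lie on the outside of blood vessels. The 10 genes were chosen by name from the 22652 genes with a count in either library, and all 10 were measured. Acta2, Tagln, Myh11, Myl9, Mylk and Cnn1 form the contractile set of 6, and Rgs5, Kcnj8, Abcc9 and Cspg4 form the pericyte set of 4.

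The study profiled single cells of the femoral bone marrow of C57BL/6 embryos at E18.5, after lineage-committed haematopoietic cells had been removed with magnetic beads. There was 1 library of WT embryos and 1 library of Bmx-CreER Wls embryos, named Wls iΔBmx in the study. In these embryos a tamoxifen-inducible Cre expressed from Bmx, a gene of arterial endothelial cells (ECs), removes Wls, whose product is needed to release Wnt proteins. By design other cells keep the gene, and deletion itself was not measured here. How many embryos were pooled, and whether the WT embryos had tamoxifen, is not given in the sources used here.

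Contraction of smooth muscle runs on actin filaments pulled by myosin. Acta2 encodes the smooth muscle actin, Myh11 the heavy chain of smooth muscle myosin, Myl9 its regulatory light chain and Mylk the kinase that phosphorylates this light chain. Tagln (transgelin) and Cnn1 (calponin) bind actin. Pericytes sit on capillaries and carry less of this apparatus. Kcnj8 and Abcc9 encode the pore and the regulatory subunit of a potassium channel gated by ATP, Rgs5 shortens signalling through G proteins, and Cspg4 encodes the proteoglycan NG2.

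In the GENCODE annotation of GRCm38 (mm10) the contractile genes are Acta2 at chr19:34241090-34255590 on the minus strand, Tagln at chr9:45929619-45936058 (minus), Myh11 at chr16:14194535-14291372 (minus), Myl9 at chr2:156775420-156781658 (plus), Mylk at chr16:34745210-35002420 (plus) and Cnn1 at chr9:22099216-22109630 (plus). The pericyte genes are Rgs5 at chr1:169655501-169695813 (plus), Kcnj8 at chr6:142564837-142571614 (minus), Abcc9 at chr6:142587862-142702315 (minus) and Cspg4 at chr9:56865033-56899870 (plus). Kcnj8 and Abcc9 are neighbours on the same strand. Tagln, Mylk and Abcc9 overlap genes of the other strand (Pcsk7 and Gm48529 for Tagln, 3 noncoding or predicted genes for Mylk and 5330439B14Rik for Abcc9). Whether reads were counted by strand is not given in the sources used here, so reads of such partners cannot be told apart from those of the gene.

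Serum response factor, with its partner myocardin, switches on contractile genes through the CArG box, a 10-letter element that starts with CC, ends with GG and holds only A and T between. Promoters from 250 bases before to 50 bases after the start were at hand for 8 of the 10 genes from RefSeq (GRCm38.p6), without Tagln and Myh11. For Mylk this window, chr16:34784700-34784999, lies inside the gene and not at the start of the span given above. Of these 8, Myl9 alone held an exact match to this pattern in this window, with its first base 161 bases before the start. Boxes that depart from the pattern were not searched, so the other promoters may still hold such a box. An exact match was found in 1.63% of all 32851 promoters of this length. The pattern reads the same on either strand, and the Myl9 stretch that holds it is shown here (chr2:156775233-156775382, plus strand), with the box in capitals.

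Myl9: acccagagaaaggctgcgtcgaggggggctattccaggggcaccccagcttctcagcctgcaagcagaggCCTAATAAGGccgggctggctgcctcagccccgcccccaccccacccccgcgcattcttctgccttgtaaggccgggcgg

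The letters TGGGAA, the core bound by the Notch effector RBPJ, stood on either strand of 3 of the 8 promoters (Abcc9, Acta2 and Kcnj8), against 25.6% of all promoters. A match describes letters in this window and says nothing of binding.

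The WT library held 22708005 unique molecular identifiers (UMIs, each marking 1 captured RNA molecule) over 5998 barcodes, and the Wls iΔBmx library 24704991 over 6825. After the study's cell filter 5736 and 6620 cells remained, with medians of 3128 and 3067 UMIs. The libraries shared 49 barcodes. Levels are given as UMIs of a gene per 1000000 UMIs of a class of cells (CPM). Values in parentheses after a level, share or ratio are 95% intervals that cover counting error only, since 1 library per genotype leaves no replicate and allows no test. Levels are compared between classes or libraries for the same gene. Where genes are set side by side or ordered, this describes counted UMIs only, which were not corrected for differences in capture between genes.

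Wls itself was counted first, as a check of the labels. In cells of the joint clustering with arterial EC markers it had 10 UMIs in the WT library (39.1 CPM) and 2 in the Wls iΔBmx library (6.70 CPM), a ratio of 0.172 (0.018 to 0.805). In mural-like cells, in which the Cre driver gene Bmx had 0 UMIs in either library, it had 46 and 59 UMIs and a ratio of 1.05 (0.699 to 1.57). Wls was also lower in part of the cells outside the arterial class. The ratio was 0.620 (0.411 to 0.923) in the other EC-like cells. It was 0.728 (0.640 to 0.828) in the cluster of most eBMSC-1 stromal cells and 0.755 (0.655 to 0.868) in that of osteolineage cells. It was 0.786 (0.637 to 0.968) in that of most eBMSC-2 stromal cells and 0.711 (0.579 to 0.874) in 1 cluster of chondrocytes. In the other cartilage clusters the intervals included 1, with ratios from 0.860 (0.718 to 1.03) to 1.02 (0.829 to 1.26). Haematopoietic progenitor-like cells stood at 0.924 (0.702 to 1.21). Over all kept cells the ratio was 0.832 (0.790 to 0.877). Counts over the whole gene may include RNA that lacks the deleted part, and Wls overlaps a predicted gene on its own strand.

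Cell classes of the WT library were the study's own labels, listed for 3691 cells in 18 classes. Of these, 45 were mural cells, with 145896 UMIs in all and a median of 2708 UMIs per cell. The mural, chondrocyte, erythroid and EC lists used are each a first part of the full list. The label was checked against 12 mural markers outside the 10 genes, among them Notch3, Mcam and Pdgfrb. All 12 had a UMI in listed mural cells, at a summed 4866 CPM (4515 to 5238). The 6 endothelial markers summed to 61.7 CPM (28.2 to 117), with Cdh5, Tek and Egfl7 at 0. Lists of other cells were not absent. Bone marrow stromal markers summed to 9699 CPM (9200 to 10218), chondrocyte markers to 8184 CPM (7726 to 8662) and skeletal muscle markers to 5141 CPM (4779 to 5522).

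Of the 6 contractile genes, 5 had their highest level in mural cells, with intervals clear of every other class. Acta2 reached 3633 CPM (3330 to 3956) from 530 UMIs, Tagln 1803 CPM (1591 to 2034) from 263 UMIs and Myh11 528 CPM (417 to 660) from 77 UMIs. The light chain Myl9 stood at 1213 CPM (1041 to 1406) and its kinase Mylk at 2879 CPM (2610 to 3168). Cnn1, a gene of mature smooth muscle, had only 3 UMIs in 2 listed mural cells (20.6 CPM, 4.24 to 60.1), an interval that overlapped those of other classes. In the larger set of 106 mural-like cells of the same library, described below, it had 23 UMIs in 12 cells (72.0 CPM).

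Among the pericyte genes Rgs5 reached 6923 CPM (6502 to 7363) from 1010 UMIs, Abcc9 1357 CPM (1175 to 1560) from 198 and its channel partner Kcnj8 343 CPM (254 to 452) from 50. These 3 genes were also highest in mural cells. Cspg4 was not, with 370 CPM (278 to 483) there from 54 UMIs. Of the 9 genes with at least 20 UMIs over the listed cells, which leaves out Cnn1, 8 were highest in mural cells, against 7.81% of the 13416 genes that met this minimum. The study's clustering and naming of mural cells may have used these genes, so this count describes the labelled class and is not independent of the labels.

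**Figure D1:**
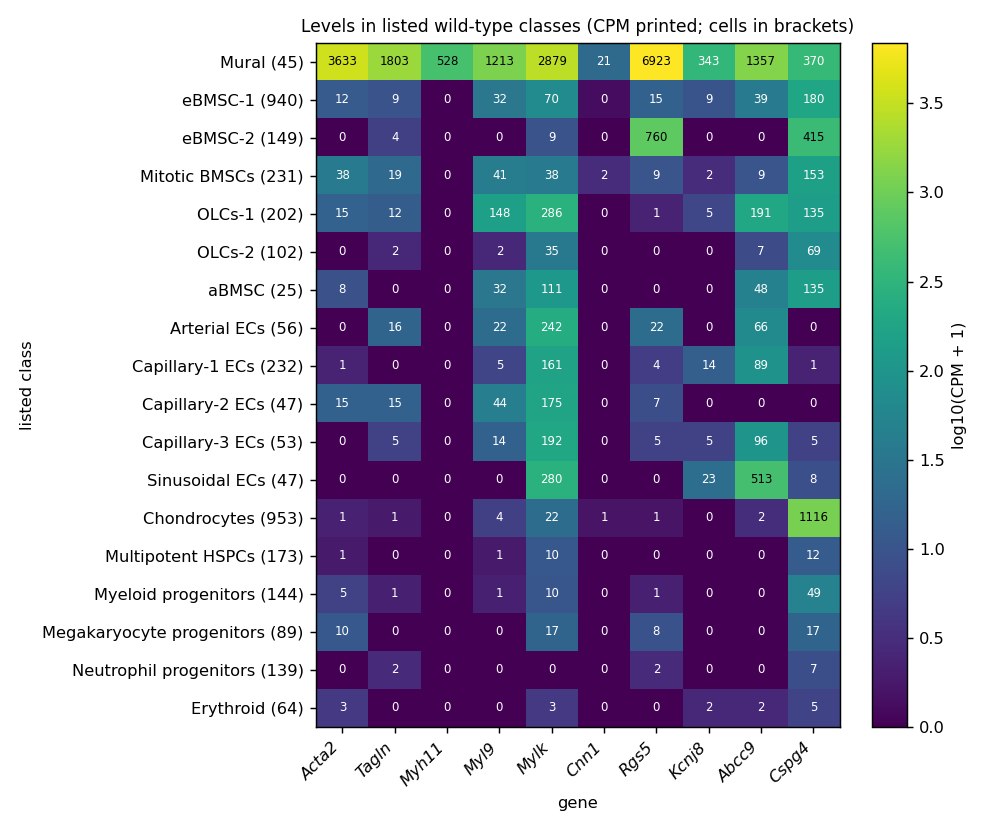
Level of each of the 10 genes (columns) in each listed class of the WT library (rows), as UMIs per 1000000 UMIs of the class, coloured on a log scale. Mural cells hold the highest level of 9 genes, that of Cnn1 from 3 UMIs, while chondrocytes hold that of Cspg4 at 1116 CPM.

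Shares of cells with a UMI were read against the 64 listed erythroid cells that passed the filter, which should lack these RNAs and had a median of 9239 UMIs. In mural cells a UMI of Mylk was found in 42 of 45 cells, of Rgs5 in 40, of Abcc9 in 37, of Acta2 in 36, of Myl9 in 32, of Tagln in 27, of Cspg4 in 24, of Kcnj8 in 23 and of Myh11 in 20. No more than 2 erythroid cells held a UMI of any of the 10 genes, although they were the deeper cells. Thinning each cell to 1000 UMIs lowered the mural shares to 81.4% for Mylk, 86.4% for Rgs5, 65.6% for Acta2 and 25.4% for Kcnj8.

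Myh11 was the gene with the sharpest boundary. It had 77 UMIs in mural cells and 0 UMIs in each of the other 17 listed classes, which puts mural cells at least 22.1-fold higher than the stromal class aBMSC, the class with the fewest UMIs, and at least 574-fold higher than chondrocytes, the class with the most (3 counts taken as the limit of a count of 0).

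For Acta2 and Tagln the next class was the mitotic bone marrow stromal cells (BMSCs), at 37.9 CPM (26.7 to 52.2) and 19.5 CPM (11.7 to 30.4). This put mural cells 95.9-fold (68.7 to 138) and 92.7-fold (58.2 to 156) higher. The Acta2 RNA of mitotic BMSCs was not spread over the class. Of its 37 UMIs, 25 lay in 5 cells that joint clustering placed with skeletal muscle-like cells, marked by genes such as Acta1 and Myh3. Likewise 13 of the 40 Myl9 UMIs of that class lay in 24 cells with Schwann cell markers.

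Myl9, Mylk and Abcc9 were also found in OLCs-1, a class of osteolineage cells. It came next after mural cells for Myl9. For Mylk it could not be told apart from sinusoidal ECs (1.02, 0.714 to 1.498), and for Abcc9 sinusoidal ECs stood 2.69-fold (1.97 to 3.63) above it. In OLCs-1 Myl9 stood at 148 CPM (122 to 179), Mylk at 286 CPM (248 to 327) and Abcc9 at 191 CPM (161 to 226). Against eBMSC-1, the largest stromal class, these levels were 4.67-fold (3.50 to 6.22), 4.08-fold (3.35 to 4.97) and 4.94-fold (3.83 to 6.39) higher. Mural cells stood 8.17-fold (6.398 to 10.5), 10.1-fold (8.51 to 11.9) and 7.10-fold (5.69 to 8.89) above OLCs-1. Acta2 in OLCs-1 was at 15.1 CPM and Myh11 at 0 UMIs. In OLCs-2, the other osteolineage class, Mylk was at 34.6 CPM, Abcc9 at 6.59 CPM and Myl9 had 1 UMI.

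Rgs5 had its second home elsewhere, in the stromal class eBMSC-2. It reached 760 CPM (683 to 844) from 352 UMIs, with a UMI in 70 of 149 cells, 40 of them with at least 3, and a highest count of 26. That was 51.7-fold (37.6 to 72.7) above eBMSC-1 and 9.11-fold (8.06 to 10.3) below mural cells. The other genes of the set had few or no UMIs there apart from Cspg4, and Acta2, Myh11, Myl9, Cnn1, Kcnj8 and Abcc9 had 0 UMIs in eBMSC-2, which allows up to 6.48 CPM at 3 counts. Of the 12 mural markers, Higd1b, Heyl, Cox4i2, Gucy1a3 and Gucy1b3 were at 0 there, and the list summed to 378 CPM (324 to 438).

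Arterial ECs are the cells that mural cells wrap in arteries and the cells in which Cre acts. In the 56 listed arterial ECs of the WT library Acta2, Myh11, Cnn1, Kcnj8 and Cspg4 had 0 UMIs, which allows up to 16.5 CPM at 3 counts. Tagln had 3 UMIs, Myl9 4 and Rgs5 4. Only Mylk and Abcc9 stood clear of this, at 242 CPM (175 to 324) from 44 UMIs and 65.9 CPM (34.0 to 115) from 12 UMIs.

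These same 2 genes were found across the endothelium. Mylk ranged from 161 CPM (133 to 193) in capillary-1 ECs to 280 CPM (196 to 388) in sinusoidal ECs, with arterial ECs inside that range. The intervals of neighbouring EC classes overlapped in this order. Abcc9 was uneven, with 513 CPM (397 to 653) in sinusoidal ECs, the wide thin-walled vessels of marrow, against 89.3 CPM in capillary-1 ECs, a ratio of 5.75 (4.02 to 8.21). Against arterial ECs the ratio was 7.79 (4.18 to 15.8). The Abcc9 RNA of capillary ECs was not spread evenly. Of the 66 capillary-1 UMIs, 60 lay in 62 cells of the joint endothelial subcluster that also held 46 of the sinusoidal cells. All 20 capillary-3 UMIs lay in 17 cells of that subcluster. Mural cells were 2.64-fold (1.99 to 3.55) above sinusoidal ECs. Kcnj8, the pore of the same channel, had only 3 UMIs in sinusoidal ECs, where 66 of Abcc9 were counted.

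Cartilage held the Cspg4 RNA. In 953 listed chondrocytes Cspg4 reached 1116 CPM (1080 to 1153) from 3643 UMIs, with a UMI in 859 cells and a median of 3 per cell. Chondrocytes were 3.02-fold (2.31 to 4.02) above mural cells. The level in eBMSC-2, at 415 CPM (358 to 478), and that in mural cells could not be told apart, with a ratio of 1.12 (0.824 to 1.54). The other 9 genes were at 21.8 CPM (Mylk) or lower in chondrocytes, and Myh11 and Kcnj8 had 0 UMIs.

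Within the mural class the genes did not move as 1 block. Acta2 ranged from 0 to 56 UMIs per cell with a median of 6, Tagln from 0 to 47 with a median of 1 and Mylk from 0 to 42 with a median of 7. Rgs5 ranged from 0 to 90 with a median of 17, Abcc9 from 0 to 15 with a median of 3 and Kcnj8 from 0 to 6 with a median of 1. Acta2 and Rgs5 were found together in 31 of the 45 cells, Acta2 alone in 5 and Rgs5 alone in 9. Of the 5 cells with Acta2 alone, 3 were cells that joint clustering placed with skeletal muscle-like cells, described below. Myh11 and Kcnj8 were both found in 9 cells, Myh11 alone in 11, Kcnj8 alone in 14 and neither in 11. The 11 include the same 3 skeletal muscle-like cells. At these low counts a missing UMI does not show that a cell lacked the RNA.

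**Figure D2:**
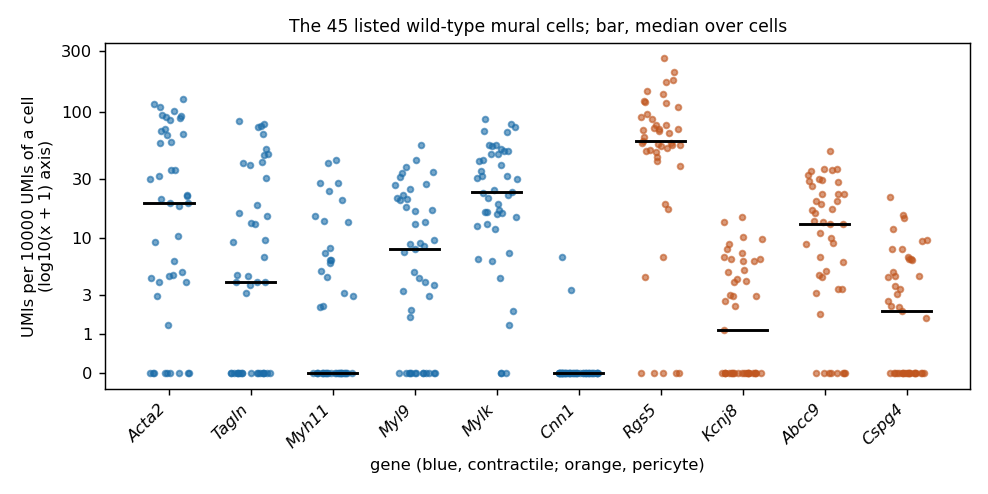
UMIs of each of the 10 genes per 10000 UMIs of the cell (vertical axis, log10 of the value plus 1) in each of the 45 listed mural cells of the WT library. Each point is 1 cell, bars are medians, blue marks contractile and orange pericyte genes. Rgs5 lies above 0 in 40 cells and Cnn1 in 2.

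Joint clustering of both libraries, made without the 10 genes, placed 37 of the 45 cells in 4 subclusters that carried the mural markers. The other 8 stood apart. Of these, 3 lay with skeletal muscle-like cells and held 255 UMIs of Acta1 and 36 of Acta2, with none of Myh11, Rgs5 or Notch3. A further 4 lay in a mixed subcluster and held 945 of the 966 Col2a1 UMIs of the class, together with 126 of Rgs5. The last lay with osteolineage cells and held 30 of Rgs5. Without the 8 cells the mural levels were higher, at 4411 CPM for Acta2, 2348 for Tagln, 703 for Myh11, 8118 for Rgs5 and 1616 for Abcc9, and again 9 of the 10 genes were highest in mural cells, Cnn1 on its 3 UMIs.

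The wider set of smooth muscle genes was also mostly highest in mural cells. Of 26 genes for the apparatus and its regulators, 23 met the minimum and 17 of these were highest in mural cells, against 7.81% of all genes at this minimum. The study's clustering may have used such genes too, so the counts of this paragraph are not independent of the labels. The 3 with the highest mural level were Cald1, which encodes caldesmon, at 3009 CPM (2734 to 3304), Tpm1 at 2913 CPM and Tpm2 at 1878 CPM, the latter 2 encoding tropomyosins. Tpm1 was higher in OLCs-1, at 3249 CPM. Of 20 measured genes of pericytes and vascular tone, 16 met the minimum and 12 were highest in mural cells. The top 3 were the receptor Notch3 at 1988 CPM (1766 to 2230), the adhesion molecule Mcam at 610 CPM and Ndufa4l2 at 610 CPM.

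None of 5 ligands that act on mural cells was highest there, against 7.81% of all genes at this minimum. For so few genes this count is near that share and says nothing particular of the ligands. Their mural levels were led by Jag1 at 123 CPM, Pdgfb at 75.4 CPM and Angpt1 at 54.8 CPM. Jag1 and Pdgfb, which act on Notch3 and Pdgfrb, were highest in arterial ECs, at 609 and 565 CPM.

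Over the 18 listed classes, which share 1 library, the genes whose log2 levels tracked the mean of the contractile set most closely were Actg2 (r = 0.926), Itga7 (0.907), Myh3 (0.896), Tnnt2 (0.880) and Adra2a (0.874). Of the 76 mural Myh3 UMIs, 74 came from the 3 skeletal muscle-like cells, as did all 48 of Tnnt2. For the pericyte set they were Ajuba (r = 0.845), Kifap3 (0.836), Gnao1 (0.833), Itga7 (0.829) and Actg2 (0.828).

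For the comparison of genotypes the mural-like cells of the joint clustering were used, 106 in the WT library and 108 in the Wls iΔBmx library, with medians of 2712.5 and 3407.5 UMIs. They fell into 4 subclusters, named here by a leading gene outside the 10. The Steap4-led subcluster held 40 WT and 36 Wls iΔBmx cells, the Igfbp5-led 19 and 42, the Gstm1-led 25 and 14, and a cycling subcluster led by Top2a 22 and 16. So the Igfbp5-led cells made up 17.9% (11.2 to 26.6) of the WT and 38.9% (29.7 to 48.7) of the Wls iΔBmx mural-like cells.

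The subclusters differed in the 10 genes, which the clustering had not used. Pooled over libraries, Igfbp5-led cells were higher than Steap4-led cells in the contractile genes, by 13.05-fold for Acta2 (10.99 to 15.6), 39.6-fold for Tagln (27.1 to 60.3), 22.6-fold for Myh11 (13.7 to 39.9), 7.92-fold for Myl9 (6.26 to 10.1) and 2.93-fold for Mylk (2.603 to 3.30). Cnn1 had 48 UMIs in the former and 0 in the latter, at least 15.4-fold higher. The channel genes ran the other way, with ratios of 0.164 for Kcnj8 (0.086 to 0.292) and 0.200 for Abcc9 (0.160 to 0.249). Rgs5 stood apart from its set, at 1.78-fold (1.598 to 1.98) in the WT library and 0.476 (0.423 to 0.534) in the Wls iΔBmx library. The WT value leaned on 1 cell with 250 of the 698 Rgs5 UMIs. Without it the Igfbp5-led level fell from 13143 to 9656 CPM, against 7389 CPM in Steap4-led cells, and the medians per cell were 65.1 and 65.2 UMIs per 10000. Cspg4 showed no clear difference, at 1.19 (0.918 to 1.54).

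Each of these contrasts other than that of Rgs5 had the same direction in either library. Acta2 was 8.62-fold higher in WT and 13.03-fold in Wls iΔBmx cells, and Abcc9 stood at ratios of 0.391 and 0.133. In Gstm1-led cells Acta2 was 10.7-fold (9.01 to 12.9) and Tagln 25.7-fold (17.4 to 39.4) above Steap4-led cells, while Abcc9 was lower, at 0.412 (0.338 to 0.499). Kcnj8 stood at 0.812 (0.553 to 1.18), an interval that includes 1, and Cspg4 was low at 0.196 (0.106 to 0.337). A single WT cell of the Gstm1-led subcluster held all 401 UMIs of the liver gene Afp counted in mural-like cells.

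**Figure D3:**
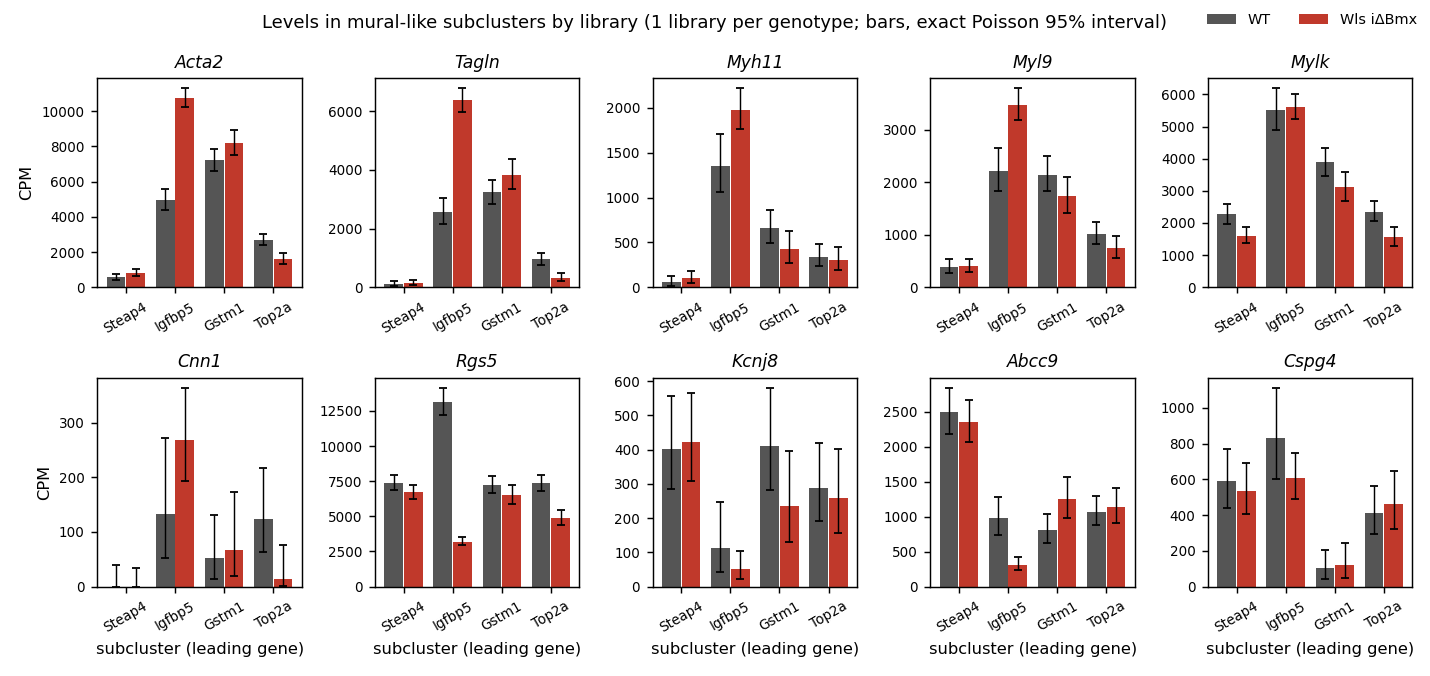
Level (CPM) of each of the 10 genes in the 4 mural-like subclusters, named by a leading gene, for the WT (grey) and Wls iΔBmx (red) library. Bars start at 0 and error bars are exact Poisson intervals of 95%. Igfbp5-led cells hold the highest Myh11 level in either library, and Steap4-led cells that of Abcc9.

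Taken over all mural-like cells, Acta2, Tagln, Myh11 and Myl9 were higher in the Wls iΔBmx library, with intervals above 1. Acta2 had 1140 UMIs at 3567 CPM in the WT and 2339 at 5963 CPM in the Wls iΔBmx library, a ratio of 1.67 (1.56 to 1.80). Tagln had 492 and 1239 UMIs (1539 and 3159 CPM), a ratio of 2.05 (1.85 to 2.28). Myh11 had 161 and 361 UMIs (504 and 920 CPM), a ratio of 1.83 (1.51 to 2.21). The intervals of Acta2, Tagln and Myh11 lay above 1.5. The share of all genes whose intervals lay above 1 or above 1.5 is not given here.

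The rest of the contractile set was less far apart. Myl9 had 419 and 733 UMIs, a ratio of 1.43 (1.26 to 1.61). Its kinase Mylk had 1031 and 1328 UMIs, a ratio of 1.05 (0.967 to 1.14). Cnn1 had 23 and 46 UMIs and a wide interval, 1.63 (0.968 to 2.82), that includes 1.

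Pericyte genes were lower or level. Rgs5 had 2651 UMIs at 8294 CPM in the WT and 1955 at 4984 CPM in the Wls iΔBmx library, a ratio of 0.601 (0.567 to 0.637). Kcnj8 had 103 and 86 UMIs, a ratio of 0.680 (0.505 to 0.915), and Abcc9 449 and 457 UMIs, a ratio of 0.829 (0.726 to 0.947). Cspg4 had 146 and 191 UMIs, a ratio of 1.07 (0.855 to 1.33).

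Of the 10 genes, 4 (Acta2, Tagln, Myh11 and Cnn1) were at least 1.5-fold higher in the Wls iΔBmx library, where 8.15% of the 2797 genes with at least 50 UMIs were. Rgs5 was at least 1.5-fold lower, as were 6.72% of genes, and Kcnj8 lay just outside that limit. The median log2 ratio was 0.72 over the contractile and -0.41 over the pericyte genes, 0.30 over all 10, and 0.00 over all genes tested. These values describe 2 libraries, and genotype and library cannot be told apart.

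Shares of cells with a UMI were also compared at equal depth. Myh11 was found in 44 of 106 WT and 59 of 108 Wls iΔBmx mural-like cells, or 26.7% and 38.8% after thinning to 1000 UMIs. Rgs5 was found in 99 and 92 cells, or 90.1% and 79.0% after thinning, and Mylk in 103 and 101 cells, or 87.7% and 82.2%.

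The library ratios changed with the weight given to each subcluster. The part of the makeup of the class was not tested, since leaving out a subcluster also removes the differences between libraries inside it. With equal weight to the 4 subclusters, the ratio was 1.38 for Acta2, 1.55 for Tagln, 1.17 for Myh11, 1.10 for Myl9 and 0.613 for Rgs5. Without the Igfbp5-led subcluster the ratios of all 6 contractile genes were below 1, at 0.880 for Acta2, 0.834 for Tagln, 0.726 for Myh11, 0.744 for Myl9, 0.708 for Mylk and 0.348 for Cnn1, and Rgs5 stood at 0.835.

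**Figure D4:**
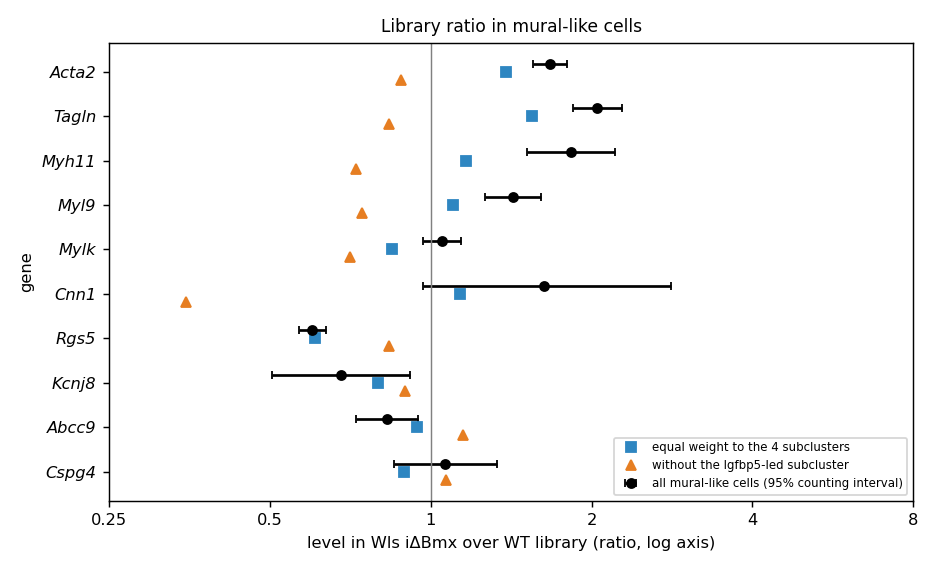
Level in the Wls iΔBmx over the WT library (ratio on a log axis) in mural-like cells, for each of the 10 genes. Black points are all mural-like cells with 95% counting intervals, blue squares give equal weight to the 4 subclusters, and orange triangles leave out the Igfbp5-led subcluster. Without it the Acta2 ratio moves from 1.67 to 0.880.

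Inside the Igfbp5-led subcluster the genes differed between libraries as well. Acta2 ranged from 1 to 36 UMIs per cell with a median of 10 in 19 WT cells, and from 1 to 110 with a median of 27 in 42 Wls iΔBmx cells, a ratio of 2.17 in CPM (1.90 to 2.48). The ratio was 2.47 for Tagln (2.06 to 2.97), 1.57 for Myl9 (1.28 to 1.93), 1.46 for Myh11 (1.13 to 1.92) and 1.02 for Mylk (0.891 to 1.17). Rgs5 ranged from 0 to 250 UMIs with a median of 9 in WT and from 0 to 51 with a median of 3 in Wls iΔBmx cells, a ratio of 0.244 (0.217 to 0.274). A single WT cell held the 250 UMIs, 35.8% of the subcluster's Rgs5 in that library. Without the top cell of each library the ratio was 0.304 (0.266 to 0.347). Abcc9 stood at 0.321 (0.212 to 0.484).

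The other subclusters showed less, and in part the reverse. In Steap4-led cells the ratio was 0.912 for Rgs5 (0.820 to 1.014), 0.942 for Abcc9 (0.785 to 1.13), 0.710 for Mylk (0.576 to 0.873) and 1.43 for Acta2 (1.008 to 2.06). In Gstm1-led cells it was 1.14 for Acta2 (1.005 to 1.29) and 1.54 for Abcc9 (1.09 to 2.19). In cycling cells Acta2 was lower in the Wls iΔBmx library, at 0.592 (0.473 to 0.739), as were Tagln at 0.329 (0.199 to 0.524) and Rgs5 at 0.667 (0.586 to 0.758).

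Markers of other cells were summed beside these results. The 12 mural markers stood at 5463 CPM (5209 to 5725) in the WT and 5295 CPM (5070 to 5528) in the Wls iΔBmx library. The 6 BMSC markers stood at 9455 CPM (9120 to 9798) and 9728 CPM (9422 to 10042), with Pdgfra and Lum at 0 in the Wls iΔBmx library. The 5 tendon markers stood at 203 CPM (157 to 259) and 770 CPM (686 to 862), with Scx, Mkx and Thbs4 at 0 in the WT library. The 8 skeletal muscle markers stood at 50.1 CPM (28.6 to 81.3) and 163 CPM (126 to 208), with Myod1, Pax7 and Ttn at 0 in both. Chondrocyte markers stood at 282 and 370 CPM and EC markers at 43.8 and 51.0 CPM. The 7 arterial EC markers stood at 156 CPM (116 to 206) and 250 CPM (203 to 304), with Sox17, Bmx and Sema3g at 0 in both, and at 413 CPM (330 to 510) in the Igfbp5-led cells of both libraries. The haematopoietic progenitor list stood at 59.4 and 10.2 CPM, and the erythroid list at 68.8 and 10.2 CPM. Pooled over libraries, the BMSC markers stood at 3101 CPM in Igfbp5-led, 9176 CPM in Steap4-led, 12953 CPM in cycling and 15842 CPM in Gstm1-led cells. The part of any of these lists in the library ratios was not tested.

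The wider lists were compared in the same cells. Of 19 smooth muscle genes with enough UMIs, 3 were at least 1.5-fold higher in the Wls iΔBmx mural-like cells and 1 was at least 1.5-fold lower, against 8.15% and 6.72% of all genes tested, with a median log2 ratio of 0.19. Named after their values were seen, these were Tpm2 (1.62), Flna (1.65) and Smtn (3.67), and Vcl (0.590). Of 17 pericyte and tone genes, 4 were higher (Heyl, Cox4i2, Foxs1 and Anpep) and 2 lower (Steap4 and Rgs4) against the same shares, with a median of -0.04. These too were named after their values were seen. Both ligands that could be measured were higher, Jag1 at 1.96 (1.36 to 2.88) and Pdgfb at 2.01 (1.12 to 3.77).

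Arterial EC-like cells, the class in which Wls is removed, had few UMIs of most of the 10 genes. Mylk had 56 and 71 UMIs, a ratio of 1.09 (0.756 to 1.57), and Abcc9 16 and 18, a ratio of 0.965 (0.465 to 2.02), so that both intervals include 1. Acta2 had 0 UMIs in the WT library and 7 in 5 cells of the Wls iΔBmx library (23.5 CPM, 9.43 to 48.3), and Rgs5 had 4 and 0. The endothelial subcluster with most sinusoidal cells also held 62 listed capillary-1 ECs. In it Abcc9 had 196 and 165 UMIs, a ratio of 1.06 (0.853 to 1.31).

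The other EC-like cells had 80 Acta2 UMIs in the WT and 12 in the Wls iΔBmx library. Of the 80, 76 lay in a subcluster of 34 WT cells that also held chondrocyte markers, and 37 lay in 1 cell. Acta2 in the EC-like class changed direction under other clustering and doublet settings, and the cause was not tested.

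Joint stromal clusters could not be named from the marker lists, and are described by the labelled WT cells they hold. In the cluster that held 837 of the eBMSC-1 cells, Abcc9 had 115 and 48 UMIs, a ratio of 0.577 (0.403 to 0.815), Kcnj8 26 and 5, a ratio of 0.266 (0.080 to 0.704), and Mylk a ratio of 1.27 (1.04 to 1.54). In the cluster that held 143 of the eBMSC-2 cells Rgs5 was level, with 347 and 376 UMIs, a ratio of 1.001 (0.863 to 1.16). It was higher in the Wls iΔBmx library in the cluster of most eBMSC-1 cells, with 24 and 31 UMIs and a ratio of 1.79 (1.02 to 3.18), and in a cluster that held 146 of the mitotic BMSCs, with 3 and 29 UMIs and a ratio of 14.0 (4.34 to 71.8). The cluster of the osteolineage cells had Myl9 at 0.537 (0.357 to 0.790), Mylk at 0.714 (0.574 to 0.884), Abcc9 at 0.811 (0.610 to 1.07) and Cspg4 at 1.44 (1.18 to 1.77). Its Rgs5 had 31 and 2 UMIs, and 30 of the 31 came from the listed mural cell named above.

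In chondrocyte-like cells Cspg4 had 5200 and 6959 UMIs, a ratio of 1.06 (1.02 to 1.10). Over the separate cartilage clusters it ran from 0.983 (0.925 to 1.05) to 1.13 (1.07 to 1.19).

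Mural-like cells made up 1.85% of the kept WT and 1.63% of the kept Wls iΔBmx cells. They held 62.0% (60.7 to 63.3) of all contractile UMIs in the WT and 79.1% (78.2 to 80.0) in the Wls iΔBmx library. By gene this share ran from 47.1% for Mylk to 88.0% for Myh11 in the WT library, and from 56.2% for Mylk to 95.8% for Myh11 in the Wls iΔBmx library. The share of pericyte UMIs was 20.9% (20.3 to 21.6) and 12.1% (11.6 to 12.5). Cspg4 set this low value, since cartilage clusters held 87.1% and 92.6% of its UMIs and made up 46.1% and 66.0% of the cells. With Cspg4 left out, mural-like cells held 69.2% (67.8 to 70.5) and 68.0% (66.5 to 69.5) of the pericyte UMIs. Shares of cells can follow how the marrow was taken apart and depleted, and fewer cells of a type cannot be told apart from cells lost in preparation.

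**Figure D5:**
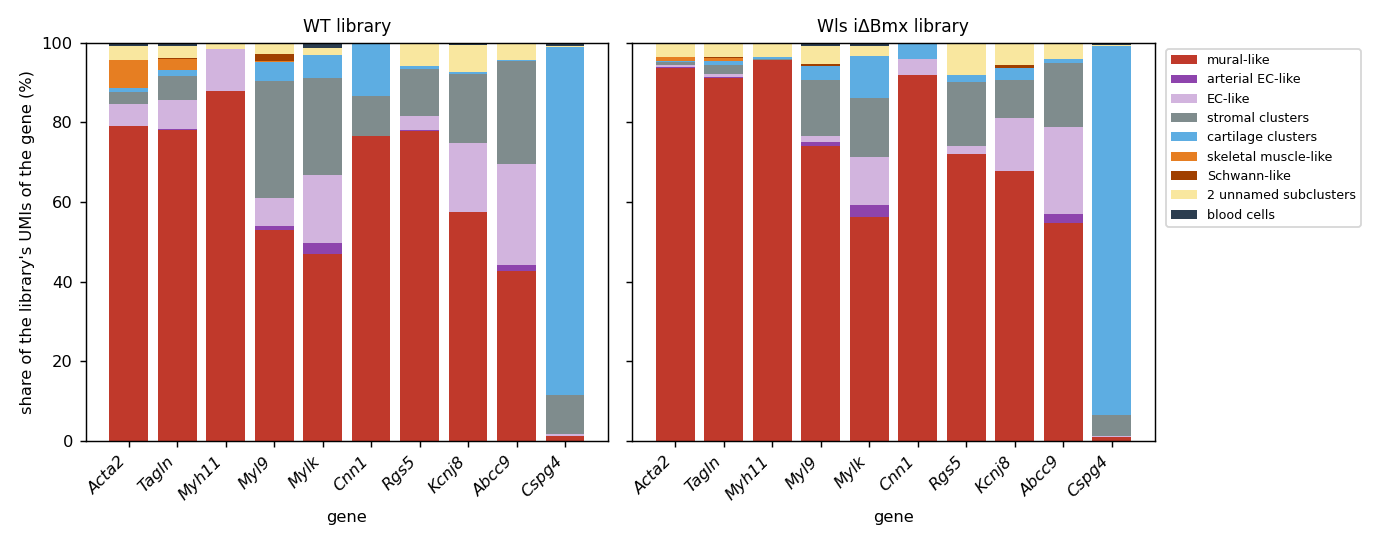
Share (%) of the UMIs of each gene held by each class of cells, for the WT and the Wls iΔBmx library. Mural-like cells hold most of the Acta2, Tagln, Myh11 and Rgs5 RNA, and cartilage clusters hold 87.1% and 92.6% of Cspg4.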

How the data were processed

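The authors deposited 1 raw count table per library, which lists the UMIs of every gene in every cell barcode. Per the submitters' processing notes and the paper's methods, BD Rhapsody reads went through bcl2fastq 2.19.1.403, UMI-tools 1.0.1, STAR 2.7.1a (mm10) and featureCounts 1.6.4. The annotation release and strand setting are not given in the sources used here.

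Cells with over 200 and under 5000 genes and under 30% mitochondrial UMIs were kept. WT classes came from the study's cell lists. Both libraries were clustered together without the 10 genes (scanpy 1.11.5, 11 principal components, 20 neighbours, Leiden resolution 0.5), and clusters with at least 3 markers of a list were named. Scrublet called 38 WT cells (0.662%) and 0 Wls iΔBmx cells, so it did not work in the latter and doublets were kept.

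Levels carry exact Poisson, shares Clopper-Pearson and ratios conditional binomial intervals at 95%. A count of 0 was set at 3 counts for bounds. On simulated mural-like data of 2797 genes the ratio interval held the true value for 95.5% of 200 genes changed 2-fold. The intervals cover counting error only, and spread between cells or libraries lies outside this check. No test between genotypes was made. Genes named are the 10, Wls, the 3 highest mural genes of each list and the 5 most alike in pattern. Other genes named mark cell classes, lead subclusters, or were chosen after their values were seen. The genes, lists and rules were chosen with earlier results of these data known.

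Alternatives changed the classes, clustering, cell filter, doublets, totals, averaging, TMM scaling (edgeR 4.0.16) and thinning.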

Additional observations from a re-analysis of the deposited data

How the results depend on the processing

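No paired analysis was possible because there was 1 library per genotype and no test was made. The count of genes highest in listed mural cells stayed at 9 of 10 in every alternative run, counting Cnn1, which rested on 3 UMIs in the listed cells. As the study's labels may rest on these genes, this count is not independent of them. The median log2 library ratio of the 10 genes in mural-like cells was 0.23 to 0.37 under the alternatives named in the methods. The following were chosen after seeing the data. With equal weight to the 4 subclusters the median was 0.029. Without the Igfbp5-led subcluster it reversed to -0.26, as did the ratios of Acta2 (0.880), Tagln (0.834), Myh11 (0.726), Myl9 (0.744) and Abcc9 (1.15), and Cnn1 moved from 1.63 to 0.348. Without the Gstm1-led subcluster it was 0.44, and without the cell with the most UMIs of each gene 0.32.

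The share of contractile UMIs in mural-like cells of the WT library moved to 63.7% with the 10 genes kept in clustering, 64.7% with 30 principal components, 67.2% with the nearest centroid of the listed classes and 67.6% without the 5% highest Scrublet scores. In the Wls iΔBmx library it moved to 81.8% with the genes kept, at resolution 1.0 and with 30 components, to 82.4% with the centroid and to 80.9% without high Scrublet scores. The pericyte share moved in the WT library to 22.1% (genes kept), 21.9% (resolution 1.0), 22.3% (30 components), 22.8% (centroid) and 21.6% (Scrublet), and in the Wls iΔBmx library to 13.0035% with the first 3 of these and 13.4% with the centroid.

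In EC-like cells without arterial cells the Acta2 ratio, 0.172, reversed to 2.26 at resolution 1.0, 2.68 with 30 components, 2.96 with the centroid and 3.39 without high Scrublet scores. Tagln reversed to 1.35, 1.86 and 2.26 under the first, second and last of these, Myl9 to 1.15 with the centroid, and Rgs5 to 2.42 at resolution 1.0, 1.005 with the centroid and 1.10 without high Scrublet scores. The cause was not tested. Of the values of single genes, 269 moved by less than their counting interval, 45 by more, and 16 reversed. There was 1 library per genotype, and low counts limit what can be said of Cnn1, Kcnj8 and arterial ECs.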
